A study of Mus musculus with 10 samples.

Results

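The genes followed here are 10 named markers of leukocytes and macrophages, *Ptprc*, *Cd68*, *Csf1r*, *C1qa*, *C1qb*, *C1qc*, *Adgre1*, *Mrc1*, *Spi1* and *Tyrobp*, in RNA sequencing libraries of mouse skeletal stromal cells. They were taken by gene symbol, and all 10 were among the 15078 genes of the deposited table. Of these, 9 passed the filter on low values used for testing, a mean normalized read count of at least 10 over the 10 libraries. *Mrc1* did not pass and is given by its values alone.

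The study transplanted a whole femur under the skin of a recipient mouse and asked how stromal cells of the periosteum, the sheet that covers the bone, contribute to the regenerating marrow. Bone marrow mesenchymal stem cells (BM-MSCs, 3 libraries) and periosteal skeletal stem cells (P-SSCs, 3 libraries) came from wild-type mice that the labels call hosts at steady state, with no treatment. Whether these mice carried a graft is not given in the sources used here. Graft BM-MSCs (4 libraries) came from the marrow of femurs taken 5 months after transplantation into wild-type hosts. The grafted femurs carried *Postn* Cre-ER and a tdTomato reporter that tamoxifen switches on, and Tomato+ cells were sorted. Cre activity here depends on the periostin promoter, so the sort was aimed at cells whose lineage had used that promoter at induction. Blood cell genes were nevertheless read in the graft libraries, as given below. By their labels these libraries differ from the steady-state ones in genotype, in tamoxifen and in coming from a graft. All 3 populations were sorted as CD45-Ter119-CD31-CD51+CD200+ cells, so that cells with CD45 protein, the product of *Ptprc*, were gated out by design. Replicates came from different mice. BM-MSC 2+4 and P-SSC 2+5 each combined RNA of a pair of mice, and the blood cells of a graft can come from the host.

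Macrophages are phagocytes of the myeloid lineage. In bone marrow they lie among stromal cells, where they clear dying cells and expelled red cell nuclei, and in bone they sit on the periosteal and endosteal surfaces. The transcription factor PU.1, encoded by *Spi1*, sets up their gene program, and the receptor encoded by *Csf1r* keeps them alive in response to the ligands CSF1 and IL-34, which stromal cells can supply. Resident macrophages are also a main source of complement C1q, whose A, B and C chains (*C1qa*, *C1qb*, *C1qc*) assemble together.

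Stromal markers were read in every library. *Cxcl12*, the chemokine that retains stem cells in marrow, measured 743661 to 995477 in BM-MSCs, 3503 to 7751 in P-SSCs and 560618 to 736781 in graft BM-MSCs, and *Cd200*, used in the gate, measured 1372 to 3277 over all libraries. Library totals ran from 15415421 to 25223295 reads, so that 3 reads, the limit a count of 0 allows, correspond to 0.119 to 0.195 ppm of the reads. That limit covers counting error only, and RNA lost before sequencing is outside it. Each value below is a normalized read count, that is, reads divided by a size factor per library, and 1 read is worth 0.565 to 1.27 of it. Graft libraries listed more genes at 0 (22.6 to 38.3% of all genes) than BM-MSC (11.5 to 15.9%) or P-SSC libraries (13.3 to 19.0%). Genes at 100 or more in the rest of their group were at 0 in 0.898 to 8.78% of cases in a graft library and in at most 0.363% in a steady-state library. P-SSC 4 and all 4 graft libraries also read GC-rich genes higher than the other 5 libraries did, where the median of 51 genes over 65% GC, each centred over the libraries on the log2 scale, differed from that of genes of 50 to 60% GC by 1.52 to 2.80 against -1.81 to -1.51. A 0 in a graft library is therefore given below as listed at 0.

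The 3 C1q genes lie side by side on chromosome 4 (GRCm38, minus strand): *C1qb* (ENSMUSG00000036905) at chr4:136880129-136886187, *C1qc* (ENSMUSG00000036896) at chr4:136889804-136893065 and *C1qa* (ENSMUSG00000036887) at chr4:136895917-136898803. *Cd68* (ENSMUSG00000018774) lies at chr11:69664213-69666153, also on the minus strand. Start-site windows of 300 bases, 250 before the start and 50 after it, were read from RefSeq (GRCm38.p6) for 5 of the 10 genes, and GAGGAA or its reverse complement TTCCTC, a core that PU.1 proteins bind, was looked for on both strands. All 5 genes, *C1qb*, *C1qc*, *Cd68*, *Ptprc* and *Mrc1*, had a window with the letters, against 8446 of 27025 genes in the RefSeq table (31.3%). A match describes the letters and no binding was measured. The windows of *C1qb*, *C1qc* and *Cd68* are shown because these genes did not overlap between BM-MSCs and either other group, with the match in capitals, 5′ to 3′ on the minus strand, at chr4:136886151-136886450, chr4:136892865-136893164 and chr11:69666121-69666420.
C1qb: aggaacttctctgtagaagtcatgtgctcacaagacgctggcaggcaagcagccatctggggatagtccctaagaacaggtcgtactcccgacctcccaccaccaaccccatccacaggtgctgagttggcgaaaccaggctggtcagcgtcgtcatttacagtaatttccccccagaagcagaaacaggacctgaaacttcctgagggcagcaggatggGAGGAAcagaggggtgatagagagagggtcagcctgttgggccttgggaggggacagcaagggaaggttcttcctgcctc
C1qc: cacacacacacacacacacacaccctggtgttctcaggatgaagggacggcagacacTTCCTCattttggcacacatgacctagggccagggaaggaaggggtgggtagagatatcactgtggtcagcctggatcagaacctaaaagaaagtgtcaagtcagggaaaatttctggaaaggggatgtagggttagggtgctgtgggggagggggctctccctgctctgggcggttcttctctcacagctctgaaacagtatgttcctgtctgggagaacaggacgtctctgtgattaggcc
Cd68: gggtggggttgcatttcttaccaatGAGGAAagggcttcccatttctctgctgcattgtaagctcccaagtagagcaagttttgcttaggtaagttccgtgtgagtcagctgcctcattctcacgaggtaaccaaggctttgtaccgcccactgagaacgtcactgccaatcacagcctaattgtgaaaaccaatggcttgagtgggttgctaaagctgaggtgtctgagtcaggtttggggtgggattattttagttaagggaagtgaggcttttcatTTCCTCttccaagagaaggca

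BM-MSCs at steady state carried RNA of most of these genes, P-SSCs carried little, and the 4 graft libraries differed widely from each other. Summed over the 10 genes, the normalized read count was 1727, 3117 and 1473 in BM-MSC 1, 2+4 and 3, and 111, 525 and 79.5 in P-SSC 1, 2+5 and 4. In graft BM-MSC 1 to 4 it was 72.9, 223, 2028 and 432. Every P-SSC library lay below every BM-MSC library, while graft BM-MSC 3 lay within the BM-MSC range and the other 3 graft libraries lay below it. Group means were 2106 ± 885 (SD, n = 3) for BM-MSCs, 238 ± 248 (SD, n = 3) for P-SSCs and 689 ± 905 (SD, n = 4) for graft BM-MSCs. The P-SSC mean was 11.3% of the BM-MSC mean and the graft mean 32.7%, or 11.5% without graft BM-MSC 3. As a share of the library, the genes took 79.7 to 152 ppm of the reads in BM-MSCs, 4.24 to 22.7 in P-SSCs and 5.11 to 131 in graft BM-MSCs. Since these are bulk samples, fewer cells of a type and less RNA per cell cannot be told apart.

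**Figure D1:**
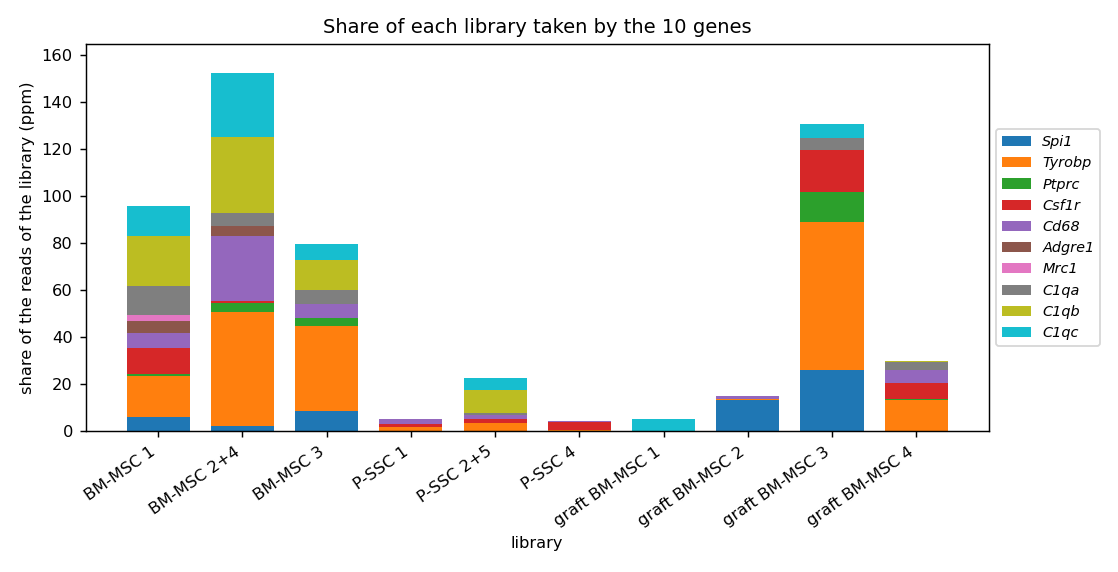
Share of the reads of each library, in ppm, taken by each of the 10 genes, stacked, for the 10 libraries. The 3 BM-MSC bars reach 79.7 to 152, the P-SSC bars stay at or below 22.7, and graft BM-MSC 3 reaches 131 with no *C1qb*, *Cd68* or *Adgre1* segment.

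The genes were also unevenly present. Of the 30 gene values in BM-MSCs, 3 were at 0, against 16 of 30 in P-SSCs and 21 of 40 in graft BM-MSCs. BM-MSC 1 had reads of all 10 genes. P-SSC 2+5, which combined a pair of mice, had reads of 7, and the other P-SSC libraries of 3 and 4. Graft BM-MSC 1 had reads of 2 genes, graft BM-MSC 2 of 3, graft BM-MSC 3 of 6 and graft BM-MSC 4 of 8. *Tyrobp* led the sum in BM-MSC 2+4 and 3 and in graft BM-MSC 3 and 4, *C1qb* in BM-MSC 1 and P-SSC 2+5, *Cd68* in P-SSC 1, *Csf1r* in P-SSC 4, *C1qc* in graft BM-MSC 1 and *Spi1* in graft BM-MSC 2. In graft BM-MSC 1, *C1qc* made up 98.4% of the sum, and in graft BM-MSC 2, *Spi1* made up 87.9%.

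**Figure D2:**
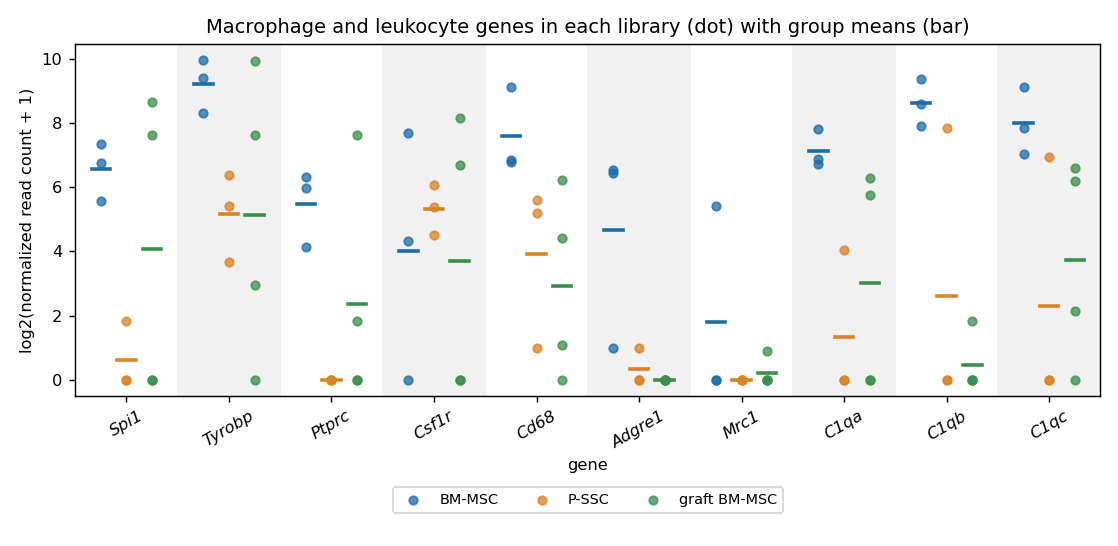
Each of the 10 genes in each library, as log2(normalized read count + 1), with BM-MSC, P-SSC and graft BM-MSC libraries side by side and a bar at the group mean on this scale. All 3 BM-MSC libraries have reads of *Spi1*, *Tyrobp*, *Ptprc*, *Cd68*, *C1qa*, *C1qb* and *C1qc*, whereas P-SSC and graft dots often sit at 0.

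Among the factors at the head of the program, *Spi1* (ENSMUSG00000002111, GRCm38 chr2:91082390-91115756) measured 107, 46.4 and 160 in BM-MSC 1, 2+4 and 3, and 0, 2.55 and 0 in P-SSC 1, 2+5 and 4. In graft BM-MSC 1 to 4 it measured 0, 196, 402 and 0. The P-SSC libraries lay below all BM-MSC libraries, and the graft libraries were split, with a pair above every BM-MSC library and a pair listed at 0. *Spi1* had 2 reads in all P-SSC libraries together, and by reads its BM-MSC level was 147 times the P-SSC level (95% exact interval 40.2 to 1216, counting error only). The fitted difference of P-SSCs from BM-MSCs was -5.94 on the log2(value + 1) scale (SE 2.36, limma, Benjamini-Hochberg adjusted p = 0.185), and that of graft BM-MSCs from BM-MSCs was -2.48 (SE 2.21, limma, adjusted p = 0.507).

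*Csf1r*, the receptor for CSF1 and IL-34, did not follow the other genes. It measured 205, 19.0 and 0 in the BM-MSC libraries and 21.8, 40.8 and 65.9 in the P-SSC libraries. In graft BM-MSC 1 to 4 it measured 0, 0, 282 and 102. P-SSCs were the only group with reads in every library, and the ranges of all 3 groups overlapped. The difference of P-SSCs from BM-MSCs was 1.32 (SE 2.58, limma, adjusted p = 0.966) and that of graft BM-MSCs was -0.29 (SE 2.42, limma, adjusted p = 0.964), and the sign of each turned under other settings.

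*Tyrobp* encodes DAP12, the adaptor through which many myeloid receptors signal, and *Ptprc* encodes CD45, the phosphatase on the surface of leukocytes. *Tyrobp* (chr7:30413760-30417585) measured 315, 992 and 670 in the BM-MSC libraries and 41.5, 81.5 and 11.6 in the P-SSC libraries. In the graft libraries 1 to 4 it measured 0, 6.75, 977 and 194. It was the only gene of the 10 besides *Cd68* and *Csf1r* with reads in all P-SSC libraries, and the P-SSC and BM-MSC ranges did not overlap. The graft values ran from 0 to near the top of the BM-MSC range. The difference from BM-MSCs was -4.07 in P-SSCs (SE 2.19, limma, adjusted p = 0.401) and -4.09 in graft BM-MSCs (SE 2.05, limma, adjusted p = 0.242).

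*Ptprc* (chr1:138062861-138175708) measured 16.7, 78.0 and 62.1 in the BM-MSC libraries and was at 0 in all 3 P-SSC libraries. In the graft libraries 1 to 4 it measured 0, 0, 196 and 2.59. RNA for CD45 was thus read in every BM-MSC library in spite of the CD45- gate, and the highest value of all was in graft BM-MSC 3. The P-SSC level was at least 15.9-fold lower than in BM-MSCs, taking 3 reads per library as the limit that a count of 0 allows (counting error only). The fitted difference was -5.48 (SE 1.86, limma, adjusted p = 0.110), and in graft BM-MSCs it was -3.11 (SE 1.74, limma, adjusted p = 0.291). Without graft BM-MSC 3, *Ptprc* passed the threshold in both comparisons with BM-MSCs, with a graft difference of -4.86.

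*Cd68*, *Adgre1* and *Mrc1* mark mature macrophages, and neither *Cd68* nor *Adgre1* passed the threshold with all libraries. *Cd68*, a lysosomal glycoprotein, measured 115, 558 and 109 in the BM-MSC libraries and 47.8, 35.7 and 0.969 in the P-SSC libraries. In the graft libraries 1 to 4 it measured 1.13, 20.2, 0 and 74.2. Neither P-SSCs nor graft BM-MSCs overlapped BM-MSCs, and graft BM-MSC 3, with the most *Tyrobp* and *Ptprc* reads of the graft libraries, was the one listed at 0. The difference from BM-MSCs was -3.66 in P-SSCs (SE 1.94, limma, adjusted p = 0.386) and -4.66 in graft BM-MSCs (SE 1.81, limma, adjusted p = 0.142).

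*Adgre1* encodes F4/80, the classic surface marker of mouse macrophages. It measured 90.9, 86.5 and 0.986 in BM-MSC 1, 2+4 and 3, 0, 0 and 0.969 in the P-SSC libraries, and 0 in all 4 graft libraries. Its reads came almost entirely from BM-MSC 1 and 2+4, and BM-MSC 3 and P-SSC 4 had 1 read each. With 3 reads per library as the limit of a 0, the graft level was at least 24.2-fold below the BM-MSC mean (counting error only). That mean rests on BM-MSC 1 and 2+4, since BM-MSC 3, at 0.986, lay under this limit in every graft library (1.69 to 3.02). The fitted difference of the graft was -4.65 (SE 1.26, limma, adjusted p = 0.0509), which did not pass. Against P-SSCs, with 1 read in all, the BM-MSC level was 162 times higher (95% exact interval 28.7 to 6429, counting error only), and the fitted difference of P-SSCs was -4.33 (SE 1.35, limma, adjusted p = 0.0791). Both comparisons passed the threshold without BM-MSC 3, at -6.49 for the graft and -6.16 for P-SSCs. *Mrc1*, the mannose receptor CD206, measured 41.8 in BM-MSC 1 and 0.863, from 1 read, in graft BM-MSC 4, and was at 0 in the other 8 libraries.

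Of the 9 genes tested, *C1qb* had the largest fitted difference from BM-MSCs in P-SSCs and in graft BM-MSCs. It measured 385, 662 and 237 in the BM-MSC libraries and 0, 228 and 0 in the P-SSC libraries. In the graft libraries it was listed at 0, 0 and 0 in 1 to 3 and measured 2.59, from 3 reads, in graft BM-MSC 4. No P-SSC or graft library reached the lowest BM-MSC library, although P-SSC 2+5 came close. The BM-MSC level was 721 times the graft level by reads (95% exact interval 246 to 3503, counting error only). *C1qb* was lower in graft BM-MSCs than in BM-MSCs by a fitted -8.16 (SE 1.84, limma, Benjamini-Hochberg adjusted p = 0.0259), the only test over these genes that passed the threshold. That call was lost when any 1 of BM-MSC 1, 2+4 and 3 or graft BM-MSC 1 and 3 was left out, with differences from -8.62 to -7.78 over all the libraries left out in turn. With a covariate that separates P-SSC 4 and the graft libraries from the other 5 (the GC split) the difference was -4.24 (limma, adjusted p = 0.842), and edgeR on 9 libraries gave an adjusted p of 0.130. The *C1qb* difference of P-SSCs from BM-MSCs was -6.01 (SE 1.97, limma, adjusted p = 0.0960), and it passed the threshold without P-SSC 2+5, at -8.62.

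*C1qa* measured 225, 116 and 104 in the BM-MSC libraries and 0, 15.3 and 0 in the P-SSC libraries. In the graft libraries 1 to 4 it measured 0, 0, 76.5 and 52.6. *C1qc* measured 227, 559 and 130 in the BM-MSC libraries, 0, 121 and 0 in the P-SSC libraries, and 71.7, 0, 94.7 and 3.45 in the graft libraries. Neither gene overlapped between BM-MSCs and the other groups. The *C1qa* difference from BM-MSCs was -5.79 in P-SSCs (SE 2.03, limma, adjusted p = 0.123) and -4.13 in graft BM-MSCs (SE 1.89, limma, adjusted p = 0.204). The *C1qc* difference was -5.69 in P-SSCs (SE 2.29, limma, adjusted p = 0.192) and -4.27 in graft BM-MSCs (SE 2.14, limma, adjusted p = 0.242).

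*C1qb* made up the largest share of C1q in the BM-MSC libraries and in no graft library. Per kilobase of exon, it made up 51.5, 60.3 and 56.6% of the C1q level in BM-MSC 1, 2+4 and 3, *C1qa* 31.4, 11.05 and 25.9% and *C1qc* 17.1, 28.7 and 17.5%. In P-SSC 2+5, the one P-SSC library with C1q reads, *C1qb* made up 73.0%. In graft BM-MSC 1, 100% was *C1qc*, from 127 reads beside no read of either other chain. Graft BM-MSC 3 had *C1qa* and *C1qc* and no *C1qb* read, and in graft BM-MSC 4, *C1qa* made up 92.4%. Graft BM-MSC 2 had no C1q reads. These shares were not tested, and the larger share of genes listed at 0 in the graft libraries, given above, moved with them. They also depend on the exon lengths used (1040 bases for *C1qa*, 1088 for *C1qb* and 1931 for *C1qc*).

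Levels per kilobase of exon compare genes only roughly, since the length joins all annotated exons and can exceed that of any given transcript. On this scale *Tyrobp* was the highest of the 10 in BM-MSCs (988 ± 508, SD, n = 3) and graft BM-MSCs (441 ± 695, SD, n = 4). *C1qb* was next in BM-MSCs (393 ± 199) and highest in P-SSCs (69.9 ± 121), where *Tyrobp* was close (67.3 ± 52.6). *Spi1* was next in graft BM-MSCs (55.5 ± 71.2). In BM-MSCs *Cd68* (207 ± 205), *C1qc* (158 ± 116) and *C1qa* (142 ± 64.0) followed, and these neighbours lay within one SD of each other. *Ptprc* (2.86 ± 1.74, over 18313 bases of exon) and *Mrc1* (2.19 ± 3.79) were lowest.

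Taken across the 9 genes tested, BM-MSCs and P-SSCs were separated more by direction than by called tests. In P-SSCs against BM-MSCs, 8 of 9 genes did not overlap between the groups, all lower in P-SSCs, where 15.8% of all 13644 genes tested were lower and 15.1% higher without overlap. The same 8 estimates were below 0, as were 49.2% of all genes. For *Adgre1* the lack of overlap rests on 1 read each, 0.986 in BM-MSC 3 against 0.969 in P-SSC 4. Its mean of 17.9 over all libraries, which passed the filter, came from BM-MSC 1 and 2+4. By limma, 0 of 9 passed an adjusted p of 0.05, where 9.15% of all genes did, and 6 of 9 had an unadjusted p under 0.05, where 18.7% of all genes did. DESeq2 called 1 and edgeR 0 on the reads of the 9 libraries other than graft BM-MSC 3. The count rose to 4 when only these 2 groups were fitted, where 1852 of all 13644 genes passed. That fit leaves the uneven graft libraries out of the shared spread. It rose to 7 when each library was weighted, where 3497 of all genes passed. The median difference was -5.48, or -4.33 with the gene at 0 in every P-SSC library set to its bound, against 0.00 over all genes.

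In graft BM-MSCs against BM-MSCs, 1 of 9 genes (*C1qb*) passed, where 5.06% of all genes passed in the lower direction, and all 9 estimates were below 0, where 64.1% of all genes were. These are differences on the log2 scale, where libraries at 0 weigh heavily. By mean normalized read count, *Spi1* (150 against 104) and *Csf1r* (96.0 against 74.6) were higher in the graft. *Ptprc* was close (49.7 against 52.3), and the other genes tested were lower. A total of 5 did not overlap, all lower in the graft, where 14.7% of all genes were lower and 10.3% higher without overlap. *Adgre1* is among them, listed at 0 in the graft against 1 read in BM-MSC 3. An unadjusted p under 0.05 was found for 3 of 9, where 25.5% of all genes had one. The median difference was -4.13 against -0.53 over all genes. In graft BM-MSCs against P-SSCs, limma called 0 of 9 (18.1% of all genes) and 0 had an unadjusted p under 0.05 (32.8% of all genes), edgeR called 0 and DESeq2 called 1, *C1qb*. None was without overlap, where 18.5% of all genes were lower and 8.06% higher in the graft without overlap. Of 9 estimates 5 were below 0, against 60.4% of all genes, and they ran from -2.15 for *C1qb* to 3.46 for *Spi1* (SE 2.21, limma, adjusted p = 0.307), with a median of -0.02 against -0.47 over all genes. The comparisons share libraries and are not independent of each other.

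**Figure D3:**
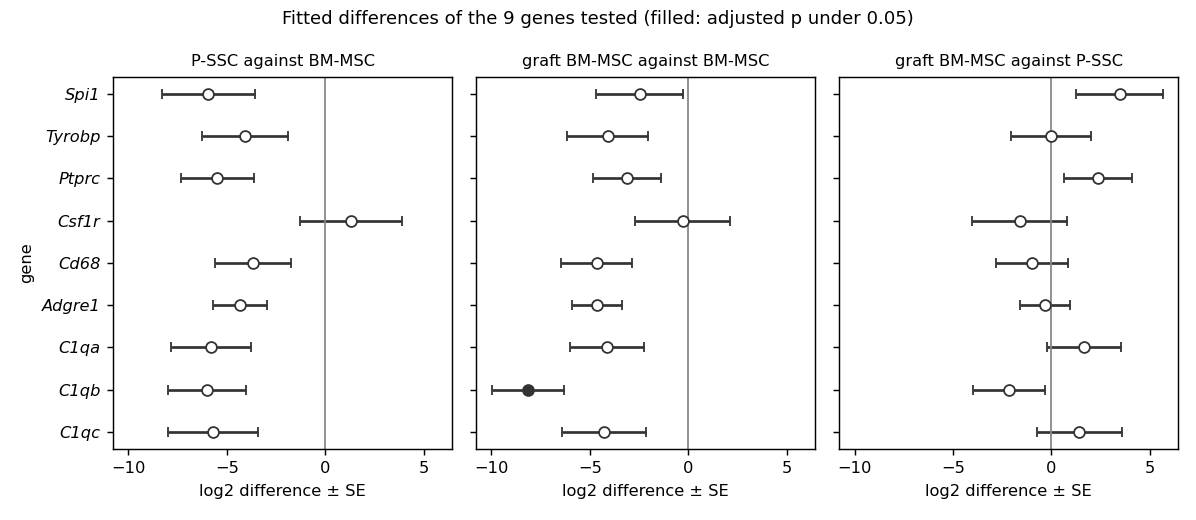
Fitted log2 difference (limma, on log2(value + 1)) with its SE for the 9 genes tested in the 3 comparisons. The point for *C1qb* in graft BM-MSCs against BM-MSCs, at -8.16, is the only filled one, and the points of graft BM-MSCs against P-SSCs lie on both sides of 0.

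Genes of other blood cells were then read in the same libraries. Neutrophil genes, 12 in all, summed to 31899 to 95712 in BM-MSCs, 33.9 to 287 in P-SSCs and 5849 to 117868 in graft BM-MSCs, with the top in graft BM-MSC 3. In P-SSCs 9 of 12 were lower than in BM-MSCs (4.58% of all genes were), led by the granule genes *Ltf* (-12.28), *Ngp* (-11.91) and *Retnlg* (-10.20) and followed by *S100a9* and *Mmp8*. Of the 12, 7 were higher in graft BM-MSCs than in P-SSCs (6.08% of all genes), *Ngp* by 9.34 (SE 1.22, limma, adjusted p = 4.52e-04), then *S100a8*, *S100a9*, *Prtn3* and *Retnlg*. By limma 0 differed between graft BM-MSCs and BM-MSCs (7.67% of all genes did), and 3 had an unadjusted p under 0.05 (25.5% of all genes). There edgeR called 1 (307 of 13644 genes) and DESeq2 5 (2139 of 13644). The 7 red cell genes summed to 59674 to 207532 in BM-MSCs, 208 to 1434 in P-SSCs and 1686 to 27479 in graft BM-MSCs. Of these, 6 of 7 were lower in P-SSCs than in BM-MSCs (4.58% of all genes were), *Hba-a1* by -7.17 (SE 0.97, limma, adjusted p = 7.80e-04) and *Alas2*, the enzyme of heme synthesis in red cells, by -10.46. *Hbb-bt*, *Hba-a2* and *Klf1* were among them. *Hbb-bt*, *Hbb-bs* and *Hba-a1* were higher in graft BM-MSCs than in P-SSCs (6.08% of all genes were). *Hba-a1* was lower in graft BM-MSCs than in BM-MSCs by -3.97 (SE 0.91, limma, adjusted p = 0.0270), where 5.06% of all genes were lower.

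The 12 pan-leukocyte genes summed to 6265 to 9712 in BM-MSCs, 261 to 546 in P-SSCs and 2611 to 12728 in graft BM-MSCs, again with the top in graft BM-MSC 3. In P-SSCs, 5 of 12 were lower than in BM-MSCs (4.58% of all genes), *Coro1a* by -8.45, *Cd52* by -6.90, *Was* by -6.08, *Laptm5* by -6.02 and *Arhgdib* by -3.60, and in graft BM-MSCs 3 of 12 were higher than in P-SSCs (6.08% of all genes), *Cd52*, *Laptm5* and *Arhgdib*. *Hcls1* was the 1 of 12 lower in graft BM-MSCs than in BM-MSCs (5.06% of all genes). The 13 other macrophage and monocyte genes of the table summed to 5578 to 19755, 732 to 2929 and 2277 to 17426 in the 3 groups, led by *Lyz2*, the lysozyme of myeloid cells. Of 9 tested, *Cybb* and *Itgam* were lower in P-SSCs than in BM-MSCs, by -10.13 and -5.40, against the same 4.58%. *Aif1* was lower in graft BM-MSCs than in BM-MSCs by -5.53 (5.06% of all genes were lower). *Cybb* and *Mertk* were higher in graft BM-MSCs than in P-SSCs (6.08% of all genes were higher), *Mertk* by 3.55. B cell genes, led by *Cd79a*, summed to at most 321 and T and NK cell genes, led by *Nkg7*, to at most 284 in any library. Of 4 B cell genes tested, *Cd79b* was lower in P-SSCs than in BM-MSCs by -6.73 (4.58% of all genes were lower). The estimate of *Vpreb1* was above 0 (2.63, SE 1.84, limma, adjusted p = 0.601). The part of these other cell types in the levels of the 10 genes was not tested.

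Many of these calls were lost when 1 library was left out. Over all genes, those called lower in P-SSCs than in BM-MSCs also fell, from 625 to 451 without BM-MSC 3. Without graft BM-MSC 3, the neutrophil genes called between graft BM-MSCs and P-SSCs numbered 5. With any 1 library left out, the genes called lower in P-SSCs than in BM-MSCs numbered 5 to 10 for neutrophils, 2 to 6 for pan-leukocyte genes and 4 to 7 for red cells, with the fewest without BM-MSC 2+4 or BM-MSC 3. In that comparison the calls of *Retnlg*, *Mmp8*, *Klf1*, *Was* and *Cd79b* were each lost without any 1 BM-MSC or P-SSC library. The call of *Itgam* was lost without BM-MSC 2+4, BM-MSC 3 or any 1 P-SSC library, that of *Coro1a* without BM-MSC 2+4, BM-MSC 3, P-SSC 2+5 or P-SSC 4, those of *Ltf* and *Cd52* without BM-MSC 2+4 or BM-MSC 3, and that of *Alas2* without BM-MSC 3. Between graft BM-MSCs and P-SSCs, the call of *Retnlg* held only without graft BM-MSC 1, that of *Hba-a1* only without BM-MSC 3, P-SSC 4 or graft BM-MSC 1, and that of *Hbb-bs* only without BM-MSC 2+4, BM-MSC 3, P-SSC 2+5 or graft BM-MSC 1. The call of *Laptm5* was lost without P-SSC 1 or graft BM-MSC 3, and that of *Mertk* without P-SSC 1, P-SSC 4, graft BM-MSC 3 or graft BM-MSC 4. With the GC split as a covariate, *Hba-a1*, *Hbb-bs* and *Hbb-bt* no longer passed in this comparison (limma, adjusted p = 0.557, 0.363 and 0.157). Between graft BM-MSCs and BM-MSCs, the calls of *Aif1* and *Hcls1* were lost without BM-MSC 2+4 and that of *Hba-a1* without any 1 BM-MSC library or graft BM-MSC 3. With the GC split, which separates all graft from all BM-MSC libraries, none of these 3 passed.

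Endothelial, megakaryocyte and osteoclast genes gave other patterns. The 6 endothelial genes of the table summed to 217 to 534 in BM-MSCs, 3432 to 7106 in P-SSCs and 0 to 275 in graft BM-MSCs. The P-SSC sum was nearly all *Tek*, the angiopoietin receptor, at 3254 to 6869, while *Emcn* and *Tie1* were at 0 in every P-SSC and graft library. The osteoclast list was led by *Ctsk*, a collagen protease that skeletal stromal cells also express, at 3375 to 9680 over all libraries. *Mmp9*, a protease of neutrophils and osteoclasts, measured 1531 to 3877 in BM-MSCs, at most 5.82 in P-SSCs and 979 to 1697 in graft BM-MSCs, and was higher in graft BM-MSCs than in P-SSCs by 9.54 (SE 0.75, limma, adjusted p = 2.57e-05). *Calcr*, the calcitonin receptor, was at 0 in all BM-MSC and graft libraries and measured 44.7 to 71.3 in P-SSCs. *Ppbp*, a platelet chemokine of megakaryocytes, measured 132 to 684 in BM-MSCs, 0 in P-SSCs and 0 to 334 in graft BM-MSCs. No megakaryocyte gene passed a limma test with all libraries and the settings used for the values above. Against BM-MSCs, an unadjusted limma p under 0.05 was found for 2 of 4 in graft BM-MSCs, where 25.5% of all genes had one. In P-SSCs it was found for 3 of 4, where 18.7% of all genes had one. Under other settings up to 3 megakaryocyte genes were called lower in P-SSCs than in BM-MSCs, the most with a weight per library, where 1841 of 13644 genes were. Of the 6 stromal genes, *Cxcl12*, *Lepr* and *Pdgfrb* were lower in P-SSCs than in BM-MSCs (4.58% of all genes were), and *Col1a1*, *Col1a2* and *Pdgfrb* were lower in graft BM-MSCs than in BM-MSCs (5.06% of all genes were). The last *Pdgfrb* call was lost without any 1 BM-MSC library or graft BM-MSC 1 and with quantile normalization or edgeR, and with the GC split none of the 3 passed (limma, adjusted p = 0.0965 for *Col1a1*, 0.133 for *Col1a2* and 0.662 for *Pdgfrb*).

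**Figure D4:**
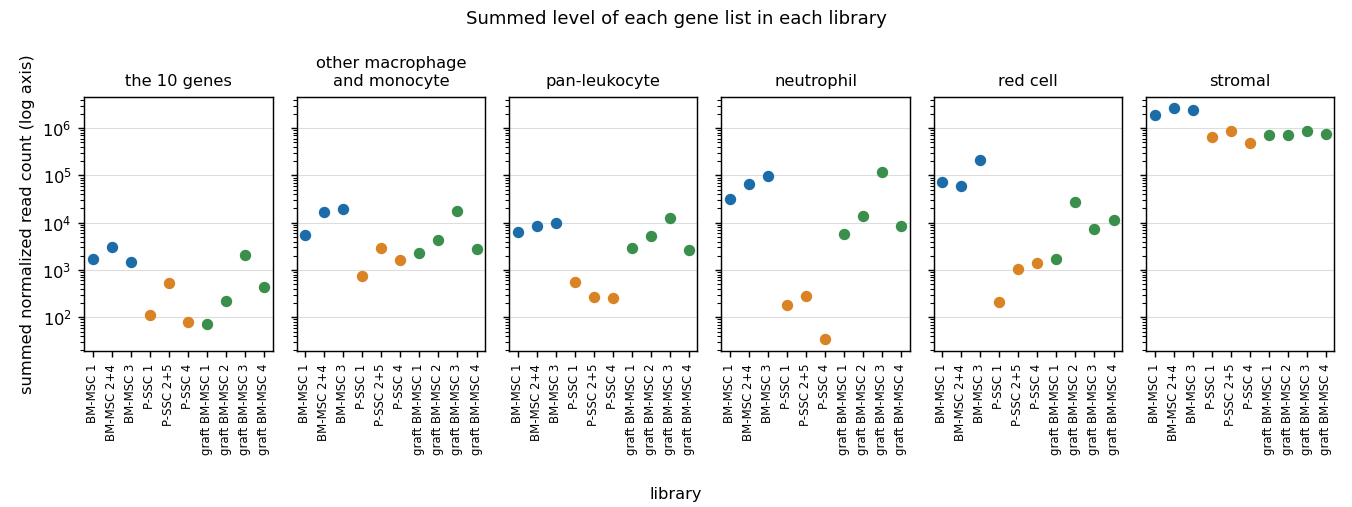
Summed normalized read count of 6 gene lists in each library on a log axis, BM-MSC first, then P-SSC, then graft BM-MSC. Graft BM-MSC 3 is the highest graft library for the 10 genes and for other macrophage, pan-leukocyte and neutrophil genes, while the red cell sum is highest in graft BM-MSC 2 and the stromal sums of the graft libraries lie close together.

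*Cybb* and *Fcer1g* kept a level in every graft library where most of the 10 genes did not. They were not alone in this. Other blood cell genes, such as *Laptm5*, *Arhgdib* and *S100a8*, also had reads in every graft library, while *Itgb2* and *Ly6g*, for example, did not. *Cybb* encodes a subunit of the phagocyte NADPH oxidase and *Fcer1g* the Fc receptor gamma chain, an adaptor related to DAP12. *Fcer1g* measured 1088, 1524 and 801 in the BM-MSC libraries, 13.5, 43.3 and 0 in the P-SSC libraries and 1295, 760, 643 and 2345 in the graft libraries. *Cybb* measured 842, 771 and 2165, then 0 in all P-SSC libraries, then 295, 889, 1122 and 336. Both were lower in P-SSCs than in BM-MSCs and higher in graft BM-MSCs than in P-SSCs, with differences of 7.00 for *Fcer1g* (SE 1.10, limma, adjusted p = 0.00138) and 9.13 for *Cybb* (SE 0.82, limma, adjusted p = 5.69e-05). Their differences of graft BM-MSCs from BM-MSCs were 0.01 (SE 1.10, limma, adjusted p = 1.00) and -0.996 (SE 0.82, limma, adjusted p = 0.473). Graft BM-MSC 1, with no *Tyrobp* read, had 1295 of *Fcer1g*.

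The ligands of *Csf1r* were read far more than the receptor. *Csf1* measured 8468 to 11941 in BM-MSCs, 2308, 2050 and 8529 in P-SSC 1, 2+5 and 4, and 12030 to 17032 in graft BM-MSCs. *Il34* measured 12108 to 21554 in BM-MSCs, 581 to 753 in P-SSCs and 4794 to 8923 in graft BM-MSCs. *Il34* separated all 3 groups without overlap, at -4.53 in P-SSCs against BM-MSCs (SE 0.29, limma, adjusted p = 1.01e-05), 3.36 in graft BM-MSCs against P-SSCs (SE 0.28, limma, adjusted p = 3.36e-05) and -1.17 in graft BM-MSCs against BM-MSCs (SE 0.28, limma, adjusted p = 0.0303). The last of these was lost without BM-MSC 1, BM-MSC 2+4, graft BM-MSC 1 or graft BM-MSC 4. *Csf1* was higher in graft BM-MSCs than in P-SSCs by 2.01 (SE 0.42, limma, adjusted p = 0.00792), but by 0.70 (adjusted p = 0.168) with the GC split as a covariate, and P-SSC 4 lay near the BM-MSC level.

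Of the myeloid transcription factors, *Irf8* measured 498 to 624 in BM-MSCs, 142, 126 and 0 in P-SSCs and 1210, 2166, 104 and 640 in graft BM-MSCs, and *Irf5* 7.31 to 291, 2.55 to 47.5 and 0 to 150. Neither passed the threshold in any comparison by limma.

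Receptors and signalling enzymes that couple to DAP12 or answer it had patterns of their own. *Trem2*, a receptor that signals through DAP12, measured 13.6, 44.3 and 0 in BM-MSC 1, 2+4 and 3, 70.1 in P-SSC 2+5 alone of the P-SSC libraries, and 0 in all graft libraries. *Syk*, the kinase downstream, measured 17.9 to 177 in BM-MSCs, 161 to 551 in P-SSCs and 229 in graft BM-MSC 2 alone of the graft libraries. *Sirpa*, an inhibitory receptor that stromal cells also carry, measured 135 to 405 in BM-MSCs, 2404 to 4975 in P-SSCs and 0 to 564 in graft BM-MSCs. *Syk* and *Sirpa* were lower in graft BM-MSCs than in P-SSCs, by -6.31 (SE 1.97, limma, adjusted p = 0.0499) and -5.89 (SE 1.71, limma, adjusted p = 0.0375). The *Syk* call was lost without any 1 library other than graft BM-MSC 2, and that of *Sirpa* without any 1 steady-state library or graft BM-MSC 1.

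The proteases that C1q activates were present in all libraries, unlike C1q itself. *C1ra* measured 13512 to 20901 in BM-MSCs, 13320 to 25287 in P-SSCs and 10265 to 16554 in graft BM-MSCs, and passed no test by limma. *C1s1* measured 4078 to 7384 in BM-MSCs, 10774 to 19710 in P-SSCs and 10728 to 11976 in graft BM-MSCs. It was higher than in BM-MSCs by 1.45 in P-SSCs (SE 0.26, limma, adjusted p = 0.00492) and by 1.04 in graft BM-MSCs (SE 0.25, limma, adjusted p = 0.0307), and the graft call was lost without BM-MSC 2+4, BM-MSC 3 or any 1 graft library. *Serping1*, the inhibitor of both proteases, measured 175210 to 281808, 105263 to 186552 and 71720 to 150822 in the 3 groups. Of the 11 signalling partners described, graft BM-MSCs had 3 higher and 2 lower than P-SSCs had, where 6.08% of all genes were higher and 12% lower. Against BM-MSCs the graft had 1 higher and 1 lower, where 7.67% of all genes passed either way and 2.61% were higher. P-SSCs had 1 higher and 2 lower than BM-MSCs, where 4.57% of all genes were higher and 4.58% lower.

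**Figure D5:**
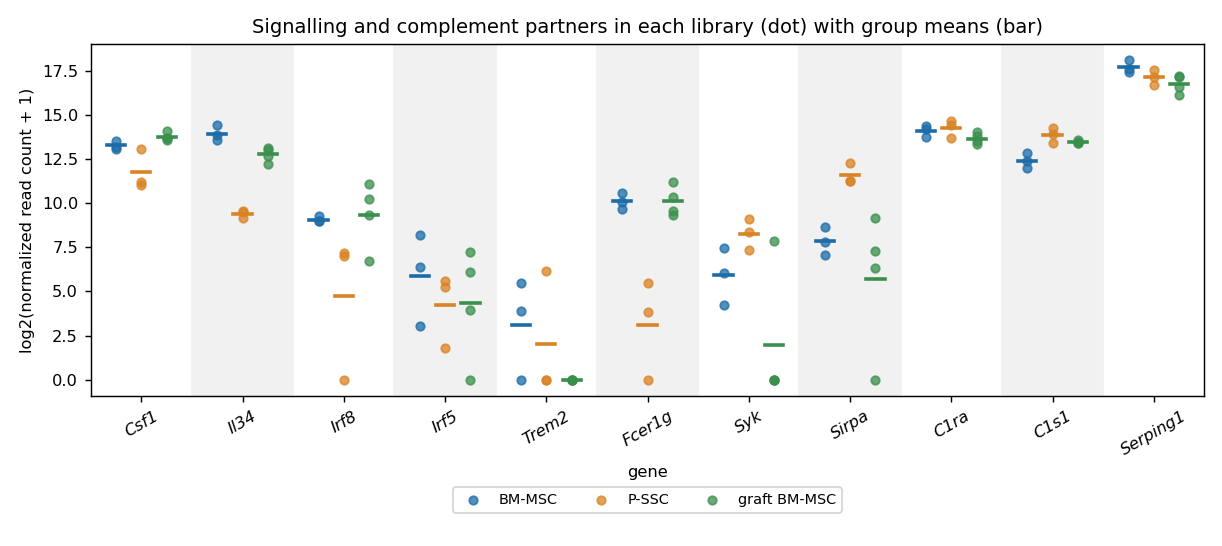
The 11 signalling and complement partners in each library as log2(normalized read count + 1), with a bar at each group mean on this scale. *C1ra*, *C1s1* and *Serping1* are high in all 10 libraries, and *Fcer1g* and *Il34* are low in P-SSCs.

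Among 13635 other genes, those whose centred log2 profile over the 10 libraries lay nearest to the mean profile of the 9 genes tested, without *Mrc1*, were *Sla*, *Cd84*, *Was*, *Itgam*, *Gm13781*, *Map4k1*, *Inhca*, *Lst1*, *Cd48* and *Rab44*. Their root mean square distance ran from 1.15 (*Sla*) to 1.41 (*Rab44*) on the log2 scale, where the median of all genes compared was 2.83 and the 9 genes themselves ran from 1.24 to 3.09. *Sla* measured 128, 47.5 and 3.95 in the BM-MSC libraries, 0 in the P-SSC libraries and 0, 0, 5.04 and 0.863 in the graft libraries. *Was* measured 35.5, 131 and 146, then 0, 1.27 and 0, then 0, 0, 29.2 and 21.6. These profiles share library depth and the zeros of the graft libraries.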

How the data were processed

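Poly(A) RNA of sorted cells was sequenced in 10 libraries. The deposited signal values are normalized read counts: the authors divided gene counts by DESeq2 size factors, and the submitters' processing notes name cutadapt 1.15, FastQC 0.11.5, STAR 2.5, featureCounts (Subread 1.4.6), DESeq2 1.26.0 and GRCm39, while the study's methods name GRCm38 and another STAR release. Which build made the table could not be settled, the table holds no coordinates, and those printed are from GENCODE M21 or RefSeq on GRCm38. The strand setting of the counting is not given in the sources used here, so reads of overlapping or antisense genes cannot be told apart. In each library every value was a whole multiple of the value of 1 read within 0.01 (100% of values), which gave depth and reads. Graft BM-MSC 3, whose value of 1 read is 1.007, was left out of the count tests because that step is too near 1 to pass the check used for recovering reads.

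The 13644 genes whose mean reached 10 were tested with limma 3.58.1 in R 4.3.3 on log2(value + 1), with empirical Bayes moderation and a variance trend. The fit had 1 mean per group over all 10 libraries and 7 residual degrees of freedom, was two-sided and used Benjamini-Hochberg adjustment over all genes with a threshold of 0.05. Fold changes on this scale understate those of genes that are low throughout a group. Where a group holds values at 0 and far above it, the fit can exceed or oppose the difference of the group means. *Spi1*, at -2.48 in graft BM-MSCs against BM-MSCs, had means of 150 and 104. edgeR 4.0.16 (quasi-likelihood) and DESeq2 1.42.0 were run on the reads of the other 9 libraries. Intervals of ratios are exact (95%) and, as the limits for a count of 0, cover counting error only. Exon lengths, the joined length of all annotated exons of a gene, and GC content are from GENCODE M21. The fits were tested on simulated data.

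Replicates of a group differed by far more than sampling noise (the lowest chi-square over its degrees of freedom was 75.2). Libraries with the same number did not deviate together (correlations of deviations from the group means from -0.02 to 0.03), so the numbers were not used as pairs. All 10 genes were named, with the signalling partners, the highest and up to 5 called genes of each other list and comparison, and the 10 nearest profiles. Some genes of these lists are not reported here. The genes and lists were chosen with earlier results of these data known. Alternatives changed the pseudocount, the filter, the normalization, the libraries or groups fitted, the weights, the tool or a covariate.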

Additional observations from a re-analysis of the deposited data

Results flagged for a closer look

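A graft library lay far from the other 3 for 3 of the 11 quantities examined, the 10 genes and their sum, by the gap to the nearest library over the whole range of the group. The gap was set against Dixon's critical value, which chance passes in about 1 of 20 groups of normally distributed values. That rate does not hold for counts with many zeros. Where the other 3 libraries are at 0 the gap is always the whole range, so *C1qb* and *Mrc1* had to pass. *Ptprc* was 196 in graft BM-MSC 3 against 0 to 2.59 in the others, with a gap of 0.987 of the range. *C1qb* was 2.59 and *Mrc1* 0.863 in graft BM-MSC 4 against 0 in the other graft libraries, from 3 reads and 1 read, which is at or under the limit that a count of 0 allows.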

How the results depend on the processing

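The number of genes called was small and moved with the settings. In graft BM-MSCs against BM-MSCs it was 1, and became 2 with a pseudocount of 0.1 or with DESeq2 on 9 libraries, 0 with edgeR on 9 libraries, 0 with the GC split as a covariate, and 0 to 1 with a library left out. In P-SSCs against BM-MSCs it was 0, and became 4 when only these groups were fitted, 7 with a weight per library, 1 with quantile normalization, 1 with DESeq2 and 0 to 1 with a library left out. In graft BM-MSCs against P-SSCs it was 0 and became 1 with DESeq2. Same-numbered libraries share only a number. With the replicate block the counts were 0 in all 3 comparisons, on 2 residual degrees of freedom, and the *C1qb* difference of graft BM-MSCs from BM-MSCs was -8.02, against -4.24 with the GC split as a covariate. Its adjusted p ran from 0.00370 to 0.842 over the alternatives, and that of *C1qb* in P-SSCs against BM-MSCs from 0.00129 to 0.707. The GC split coincides with graft and BM-MSC libraries, and only P-SSC 4 separates them.

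Directions turned only in comparisons that the gene concerned did not pass by limma with all libraries. In graft BM-MSCs against P-SSCs, *Adgre1* became 0.50 with quantile normalization and 0.28 with the replicate block. *Cd68* became 0.53 with quantile normalization, 1.96 with the GC split, 0.31 with edgeR and 0.12 with DESeq2. *Tyrobp* became 0.52 with a pseudocount of 5, 1.59 with quantile normalization, 0.14 with the replicate block, 1.46 with the GC split, 0.68 with edgeR, 0.51 with DESeq2, 0.59 without P-SSC 2+5, and -1.62 to 1.69 with a library left out. *C1qc* became -0.62 with edgeR and -0.75 with DESeq2, and *C1qb* 0.95 with the replicate block, 0.46 with the GC split and -3.46 to 0.46 with a library left out. *Csf1r* in graft BM-MSCs against BM-MSCs became 0.014 with a pseudocount of 5, 0.46 with quantile normalization, 0.39 with the replicate block and -2.30 to 1.55 with a library left out. In P-SSCs against BM-MSCs it became -0.89 with edgeR, -0.78 with DESeq2 and -0.68 to 3.16 with a library left out. The causes were not tested.

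The mean summed level stayed highest in BM-MSCs. With a library left out, the P-SSC mean was 4.53 to 15.1% and the graft mean 11.5 to 43.1% of the BM-MSC mean. The lowest graft share came without graft BM-MSC 3. P-SSC and graft libraries were not ordered. Graft BM-MSC 1, at 72.9, lay below every P-SSC library (79.5 to 525), and graft BM-MSC 2, at 223, below P-SSC 2+5. With 3 or 4 libraries a group and values at 0 and far above it within a group, SEs of up to 2.58 on the log2 scale limit every test over these genes.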
